A study of Mus musculus with 16 samples.

Results

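The genes described here are those of the Fc gamma receptor system of the mouse: the receptors Fcgr1, Fcgr2b, Fcgr3 and Fcgr4, their signaling chain Fcer1g, the kinase Syk and the neonatal Fc receptor Fcgrt. They were chosen by name, and all 7 were found among the 43346 gene rows of the count table. All 7 were also among the 23769 rows that had enough counts to be tested. RNA of 16 spinal cord libraries had been sequenced, from female mice of the strain written C57BL7J in the labels, aged 12 weeks, and all 16 carried the mark WT in their descriptions. Injury was a contusion-compression of the lumbar cord (L1/L3) with a Fejota clip of 8 g, and tissue was taken on day 30. Of each injured cord, 9 mm around the lesion was cut into 3 pieces of 3 mm, which gave the groups above (rostral), epicenter and below (caudal). In uninjured mice the same 9 mm, T11 to S1, was processed as 1 piece, so that this control pools levels that the injured cord gives as separate groups. Each of the 4 groups held 4 libraries, numbered 1 to 4. The uninjured libraries carried the same label of 30 days, no surgery for them was named, and nothing in the labels tells whether libraries came from separate animals or which segments came from 1 cord. The p-values therefore measure no more than how far these samples spread, and part of that spread may be technical.

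Fc gamma receptors bind the constant part of immunoglobulin G (IgG) and so let phagocytes respond to antibody on cells, debris or immune complexes. Fcgr1, Fcgr3 and Fcgr4 are activating receptors that signal through the common gamma chain Fcer1g, whose tyrosine motif (ITAM), once phosphorylated by Src family kinases, recruits the kinase Syk. Fcgr2b carries an inhibitory motif (ITIM) that recruits phosphatases such as Inpp5d, while Fcgrt pairs with beta-2 microglobulin (B2m) and returns IgG from endosomes. In the central nervous system, microglia and border macrophages are known to carry these receptors, and Fcer1g also serves other receptors of myeloid and mast cells.

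Fcgr2b, Fcgr3, Fcgr4 and Fcer1g lie on chromosome 1 of mm10. Fcgr2b (ENSMUSG00000026656) spans 170958617 to 170976547, Fcgr4 (ENSMUSG00000059089) 171018920 to 171029761, Fcgr3 (ENSMUSG00000059498) 171051174 to 171064935 and Fcer1g (ENSMUSG00000058715) 171229572 to 171234365. Fcgr1 (ENSMUSG00000015947) lies on chromosome 3 from 96282909 to 96293969, Fcgrt (ENSMUSG00000003420) on chromosome 7 from 45092993 to 45103822 and Syk (ENSMUSG00000021457) on chromosome 13 from 52583173 to 52648792. Fcgr2b and Fcgr3 are close paralogs: of the distinct 50-base stretches of Fcgr3 transcripts, 9.58% also occur in Fcgr2b, and these are 2.92% of those of Fcgr2b. In all, 6.95% of the stretches of Fcgr2b (395 of 5685) also occur in other genes, 146 of them. Counting reads of that stretch could split or drop them, so both genes carry this uncertainty, whereas Fcgr1, Fcgr4, Fcer1g, Fcgrt and Syk shared 0 such stretches with other genes. Fcgr2b also overlaps a gene on the opposite strand over 2.68% of its exonic length, and the library kit did not mark strand.

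Promoters were read from RefSeq on GRCm38.p6, which had an entry for 7 of 7 members, and are shown because the members moved together between groups. The PU box, GAGGAA, is bound by PU.1, a transcription factor of myeloid cells. It was searched on both strands in the 250 bases before each start and was found for 4 of 7 members, Fcgr1, Fcgr3, Fcgr4 and Syk, against 23.3% of all 32851 such windows and 25.9% of 27025 genes. The 3 receptor promoters with it are shown as the 120 bases that hold it, 5′ to 3′ on the gene's strand, and the capitals, TTCCTC, mark the PU box as it reads from the other strand. The Fcgr1 window is chr3:96293970-96294089 (minus strand), the Fcgr3 window chr1:171059395-171059514 (minus strand, inside the span of the gene in the files, before the second of its RefSeq starts) and the Fcgr4 window chr1:171018806-171018925 (plus strand).
Fcgr1: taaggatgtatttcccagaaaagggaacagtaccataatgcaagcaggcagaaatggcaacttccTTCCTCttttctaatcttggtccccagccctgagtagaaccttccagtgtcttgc
Fcgr3: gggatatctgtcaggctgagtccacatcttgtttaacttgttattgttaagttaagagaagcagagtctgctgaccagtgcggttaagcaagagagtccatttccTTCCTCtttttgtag
Fcgr4: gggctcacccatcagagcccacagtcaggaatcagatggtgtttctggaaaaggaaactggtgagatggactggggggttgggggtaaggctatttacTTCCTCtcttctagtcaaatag
The first base of the match stood 55 bases before the start of Fcgr1, 22 before that of Fcgr4 and 15 before that of Fcgr3 (6 before its other RefSeq start). Syk held it 9 bases before the second of its RefSeq starts. The pattern TTCNNNGAA, the core of sites bound by STAT factors, was found on the search of both strands in 7.02% of windows and 8.13% of genes, and among the members in Fcgr1, 109 bases before the start (ttcccagaa, in lower case in the line for Fcgr1). In humans, the FCGR1A promoter is known to answer to interferon gamma through such a site. A pattern of interferon response elements, TTTC repeated after a gap of 2 bases, was in 2.98% of windows and 3.46% of genes, and among the members in Fcgr4, 73 bases before the start. These matches describe letters and do not show binding, and absence of a match in the windows of Fcgr2b, Fcer1g and Fcgrt says only that those letters are not there.

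Each library held between 65.6 and 90.0 M (mega) counts. Markers of the labelled tissue were present throughout, neuronal ones summing to 551 to 4016 and oligodendrocyte ones to 13242 to 21648 counts per mega counts (CPM). Levels are given as CPM scaled with trimmed mean of M-values factors, and a count of 3, the upper limit that a count of 0 allows at 95% confidence, was 0.0316 to 0.0485 CPM in 1 library, which covers counting error only. On the first principal component of all tested genes (76.5% of the variance), uninjured libraries lay between -72.2 and -66.9 and epicenter libraries between 65.8 and 80.5. Some libraries stood apart from their groups. Above 1 lay at -15.6, with the other above libraries at -41.7 to -39.6, and below 3 lay at 91.7, with below 2 at -13.4 and the others at 22.0 and 28.1. The 7 pan-myeloid markers summed to 141 to 152 CPM in uninjured cord, 367 to 396 above, 805 to 1147 at the epicenter and 380 to 1377 below, where below 2 was the lowest and below 3 the highest library. In bulk tissue, more cells of any type that express a gene and more RNA of it per cell cannot be told apart. This holds for every result that follows.

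All 7 genes were lowest in uninjured cord and higher in every injured library than in any uninjured one. At the epicenter edgeR's fitted fold changes against uninjured cord ran from 5.14-fold (Fcgrt) to 52.5-fold (Fcgr4). Genes were tested with edgeR's quasi-likelihood test across all 16 libraries, with Benjamini-Hochberg adjustment over all tested genes, and a gene is said to rise or fall at an adjusted p under 0.05. Against uninjured cord 7 of 7 rose at the epicenter, 6 of 7 above and 7 of 7 below, where 31.9%, 3.09% and 23.6% of all tested genes rose and 29.3%, 0.446% and 15.7% fell. The same uninjured libraries serve all 3 comparisons. Groups did not overlap for 7 of 7 members in each of them, with the segment higher, which was so for 30.5%, 13.4% and 22.9% of all genes. The median log2 fold change of the 7 was 3.66 at the epicenter, 1.96 above and 3.05 below, and that of all tested genes 0.00320, 0 and -0.00311.

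**Figure D1:**
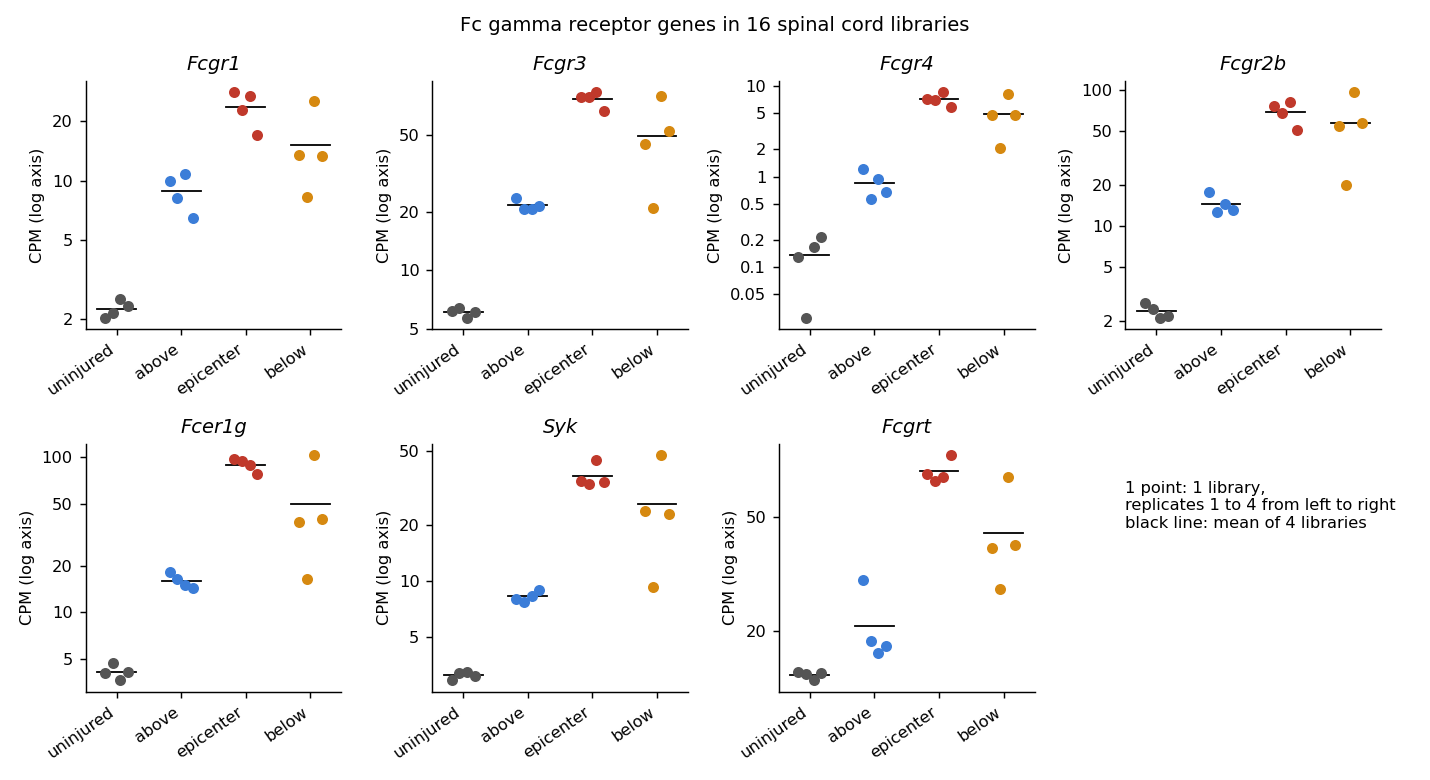
Level of each of the 7 genes in every library, as CPM on a log axis, with 1 point per library (replicates 1 to 4 from left to right) and a black line at the mean of the 4. Each injured library lies above all uninjured ones for every gene, and below 2 is the lowest and below 3 the highest of the below libraries throughout.

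The activating receptors come first. Fcgr1, the high-affinity receptor, was at 2.04, 2.14, 2.53 and 2.34 CPM in uninjured libraries 1 to 4, at 10.0, 8.15, 10.8 and 6.46 above, at 28.0, 22.9, 26.8 and 17.0 at the epicenter and at 13.5, 8.30, 25.3 and 13.4 below. No injured library reached down to the uninjured range, epicenter 4 was the lowest of its group, and the below libraries reached into both the above and the epicenter range. Fcgr1 rose by a log2 fold change of 3.39 ± 0.29 (SE, n = 4 libraries a group) at the epicenter (edgeR adjusted p = 5.58e-07), 1.97 ± 0.28 above (0.00123) and 2.74 ± 0.29 below (5.95e-06).

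Fcgr3, a low-affinity activating receptor, was at 6.14, 6.36, 5.70 and 6.11 CPM in uninjured libraries, 23.6, 20.8, 20.8 and 21.6 above, 78.4, 78.5, 83.1 and 66.3 at the epicenter and 45.2, 21.0, 79.6 and 52.2 below. The above libraries lay close together, and below 2 stood among them while below 3 stood among the epicenter libraries. The log2 fold change of Fcgr3 was 3.66 ± 0.28 at the epicenter (edgeR adjusted p = 2.86e-07), 1.84 ± 0.26 above (0.00124) and 3.03 ± 0.27 below (2.31e-06).

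Fcgr4, an activating receptor for IgG2 subclasses found on monocytes, macrophages and neutrophils, had 8, 2, 13 and 15 counts in uninjured libraries, or 0.129, 0.0276, 0.168 and 0.215 CPM. Its level was 1.22, 0.560, 0.934 and 0.673 CPM above, 7.22, 6.97, 8.54 and 5.91 at the epicenter and 4.73, 2.06, 8.27 and 4.78 below. Its above and epicenter libraries did not overlap, and its below libraries all stood over those above. Of the 7 genes it had the highest estimate in each comparison with uninjured cord, with a log2 fold change of 5.71 ± 0.48 at the epicenter (edgeR adjusted p = 4.66e-07), 2.63 ± 0.49 above (0.00676) and 5.18 ± 0.48 below (2.53e-06). The standard errors were also the widest of the 7, on low uninjured counts.

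The inhibitory receptor Fcgr2b was at 2.72, 2.48, 2.13 and 2.19 CPM in uninjured libraries, 17.7, 12.7, 14.6 and 13.1 above, 76.3, 68.0, 82.6 and 51.6 at the epicenter and 54.9, 20.3, 97.0 and 57.3 below. Every below library stood over every above library, and below 3 stood over all epicenter libraries. The log2 fold change of Fcgr2b was 4.87 ± 0.37 at the epicenter (edgeR adjusted p = 2.80e-07), 2.61 ± 0.34 above (5.58e-04) and 4.59 ± 0.36 below (1.05e-06).

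The signaling chain Fcer1g was at 4.06, 4.68, 3.64 and 4.09 CPM in uninjured libraries, 18.1, 16.5, 15.1 and 14.3 above, 97.4, 94.5, 89.9 and 77.9 at the epicenter and 38.6, 16.5, 103.7 and 40.0 below. Below 2 fell within the above range and below 3 over the epicenter range, so that the below group spanned the whole interval between its neighbours. Fcer1g rose by 4.45 ± 0.41 on the log2 scale at the epicenter (edgeR adjusted p = 7.88e-07), 1.96 ± 0.37 above (0.00823) and 3.59 ± 0.39 below (8.25e-06). Syk, the kinase the chain recruits, was at 2.94, 3.21, 3.25 and 3.10 CPM in uninjured libraries, 8.07, 7.75, 8.38 and 8.99 above, 34.3, 33.4, 44.5 and 34.1 at the epicenter and 24.0, 9.33, 47.6 and 22.8 below. Epicenter 3 was high in its group, and all below libraries stood over all above libraries. Syk rose by 3.55 ± 0.34 at the epicenter (edgeR adjusted p = 1.04e-06), 1.41 ± 0.32 above (0.0223) and 3.05 ± 0.33 below (8.29e-06). Its call above was lost when any 1 of the uninjured libraries, above 1 or above 4 was left out (adjusted p = 0.0530 to 0.0780), and with limma-voom, which also lost Fcgr4 and Fcer1g there.

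Fcgrt, the neonatal receptor, was at 14.4, 14.1, 13.4 and 14.2 CPM in uninjured libraries, 30.0, 18.4, 16.7 and 17.7 above, 70.8, 66.8, 68.7 and 82.2 at the epicenter and 39.0, 27.9, 68.7 and 39.7 below. Above 1, the library that stood apart, held 30.0 CPM and the other 3 were close to the uninjured range without reaching it. Fcgrt rose by 2.36 ± 0.23 on the log2 scale at the epicenter (edgeR adjusted p = 1.31e-06) and by 1.64 ± 0.23 below (6.25e-05). Above, its log2 fold change of 0.56 ± 0.23 did not pass (edgeR adjusted p = 0.244) and was 0.33 without above 1 (0.692). It passed without below 3 (0.0333) and in a fit of only the 8 libraries compared (0.0306).

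**Figure D2:**
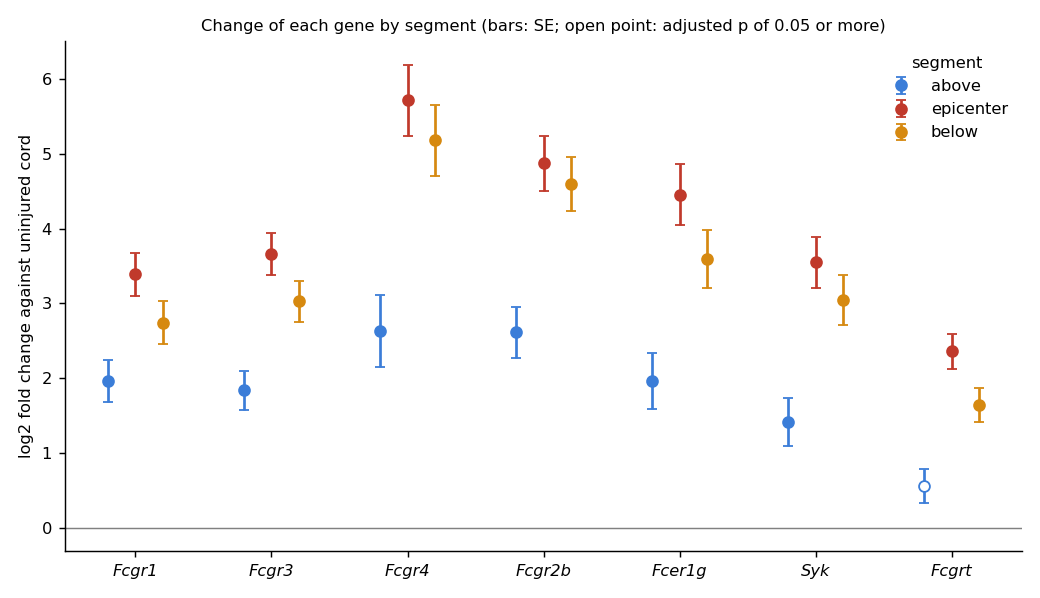
Log2 fold change of each gene against uninjured cord, for the segments above, at and below the injury, from edgeR, with SE bars and an open point where the adjusted p was 0.05 or more. Estimates run from 0.56 (Fcgrt, above, the single open point) to 5.71 (Fcgr4, epicenter), and for each gene they are ordered above, below, epicenter.

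Between segments, the mean level of all 7 genes was ordered above, below, epicenter. From above to the epicenter 7 of 7 rose, with no overlap for 7 of 7, where 28.3% of all genes rose and 26.6% did not overlap upward. These log2 fold changes ran from 1.42 ± 0.27 for Fcgr1 to 3.09 ± 0.39 for Fcgr4, with a median of 2.14 against 0.0221 over all tested genes. Fcgrt, not called above, was 1.80 ± 0.23 higher at the epicenter than above (edgeR adjusted p = 3.68e-05).

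Below the injury 7 of 7 were also higher than above it, where 15.2% of all genes were, but only Fcgr2b, Fcgr4 and Syk had groups that did not overlap (12.6% of all genes upward). The median log2 fold change was 1.64, against 0.0270 over all tested genes. Fcgr4 differed by 2.56 ± 0.38 (edgeR adjusted p = 4.66e-04), Fcgr2b by 1.98 ± 0.32 (7.32e-04) and Syk by 1.64 ± 0.31 (0.00229). Fcgr1 was near the threshold at 0.77 ± 0.26 (0.0451). It lost its call in 17 of 26 alternative settings, among them the one without below 3, where its log2 fold change was 0.40 (0.164). A fit of only the 8 libraries compared called 3 of the 7, and 1643 of all genes in either direction.

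From below to the epicenter, 1 of 7 passed, where 11.0% of all genes were higher at the epicenter. This was Fcgrt, at 72.1 ± 6.89 CPM at the epicenter and 43.8 ± 17.4 below (SD, n = 4), with a log2 fold change of 0.72 ± 0.22 (edgeR adjusted p = 0.0338). The other 6 stood between 0.28 ± 0.31 (Fcgr2b) and 0.86 ± 0.35 (Fcer1g) with adjusted p of 0.0840 to 0.529, and 0 of 7 had groups that did not overlap (8.73% of all genes upward). Single libraries decided this comparison, and over all genes as well. Without below 3, 7 of 7 were higher at the epicenter, Fcer1g by 1.51 and Fcgr2b by 0.66 (edgeR adjusted p = 5.81e-05 and 0.0465). In that fit 11057 of all genes were called in either direction, against 31 with only the 8 libraries compared. Leaving out epicenter 1, 2 or 4 or below 1, 2 or 4 left 0 of 7, with 2335 to 3113 of all genes called. Without below 2 the log2 fold change of Fcgr2b was -0.00179. Same-numbered epicenter and below libraries deviated together, with correlations of 0.136 to 0.404, so that the replicate number was used as a block. This called 0 of 7 among the 12 injured libraries (Fcgrt 0.71, edgeR adjusted p = 0.0960), with 2567 of all genes called. Among all 16 libraries it called 2 of 7, Fcgr1 and Fcgrt, with 4758 of all genes called. The fit of 16 also put uninjured libraries in the blocks. These came from other mice, and their correlations with same-numbered injured libraries were -0.177 to 0.0832. Within the 4 pairs, Fcgr1, Fcgr3, Fcgr4 and Fcgrt were higher at the epicenter in 4 of 4, Fcer1g and Syk in 3 and Fcgr2b in 2, although the 2 Fcgrt libraries of pair 3 were at 68.7 CPM each when rounded.

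Other cells moved with these differences. In below 3, neuronal markers summed to 551 CPM, against 3076 in below 2, and the microglia markers to 1289 against 428. The microglia markers summed to 240 to 250 CPM in uninjured cord, 447 to 472 above, 706 to 1056 at the epicenter and 428 to 1289 below. Of these 8, 5 rose at the epicenter, 6 above and 5 below, where 31.9%, 3.09% and 23.6% of all genes rose. Neutrophil markers summed to 1.84 to 2.18 CPM in uninjured cord, 6.86 to 24.8 above, 57.9 to 437 at the epicenter (437 in epicenter 4) and 20.2 to 41.5 below. Monocyte and border macrophage markers summed to 5.98 to 7.99, 9.31 to 24.3, 80.7 to 105 and 33.6 to 126 CPM in the same order. The markers of T and natural killer cells summed to 0.485 to 0.938, 1.02 to 1.37, 7.24 to 8.39 and 2.61 to 8.58 CPM, and Cd3g was at 0 counts in uninjured cord. Of 6 mast cell markers, a cell type that also carries Fcer1g, Cpa3, Mcpt4 and Tpsb2 were at 0 counts in uninjured cord and Mcpt4 and Cma1 above. Of the 6, 5 rose at the epicenter and below and 0 above, while Kit, which other cells also express, fell at the epicenter. Cpa3 reached 2.12 CPM at the epicenter and 1.36 CPM below, and Tpsb2 2.56 and 1.66 CPM. Schwann cell markers summed to 62.2 to 124, 67.2 to 341 (341 in above 1), 1255 to 1883 and 1445 to 2247 CPM. Markers of vessel endothelium summed to 210 to 260, 223 to 257, 281 to 359 and 313 to 540 CPM. Of these 7, 4 rose at the epicenter, 0 above and 5 below, where 31.9%, 3.09% and 23.6% of all genes rose. The part of these cells in the levels of the 7 genes was not tested.

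Set against the pan-myeloid markers of the same library, the 7 genes did not keep 1 proportion. Fcer1g was 2.78% of their summed CPM in the uninjured group, 4.22% above, 9.13% at the epicenter and 5.92% below (means of 4 libraries). Fcgr2b went from 1.61% through 3.83% to 6.96% and 7.31% in the same order, and Fcgr4 from 0.0915% through 0.222% to 0.721% and 0.643%. Syk was at 2.11% and 2.19% in uninjured and above libraries and at 3.71% and 3.23% at the epicenter and below. Fcgrt had its highest share in uninjured cord, with 9.49%, and was at 5.46% above, 7.45% at the epicenter and 6.04% below. These shares depend on how the markers are combined, since a sum weighs abundant markers most. The mean sum went from 148 CPM in uninjured cord to 995 at the epicenter. The median log2 fold change of the 7 markers there was 3.30, near those of Fcgr1 (3.39) and Syk (3.55). The shares were not tested.

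Per kilobase of gene length as given in the count table, the order of the 7 genes also differed between uninjured cord and epicenter. Except for Fcgrt, this length equals the exons of all annotated transcripts joined. It is 5790 bases for Fcgr2b (7 transcripts) and 1736 for Fcgr3 (4 transcripts). Levels per kb of different genes, and the shares made from them, depend on it, and which transcripts were used was not measured. In uninjured cord Fcgrt was highest at 8.07 CPM per kb, followed by Fcer1g at 4.71 and Fcgr3 at 3.50, while Fcgr1 was at 0.873, Fcgr2b at 0.411, Syk at 0.334 and Fcgr4 at 0.107. At the epicenter Fcer1g led at 102.9 CPM per kb, Fcgr3 and Fcgrt were close to each other at 44.1 and 41.5, and Fcgr2b stood at 12.0, Fcgr1 at 9.14, Fcgr4 at 5.70 and Syk at 3.91. Of the summed level per kb of the 4 Fc gamma receptors, Fcgr3 made up 71.5 ± 2.20% in uninjured cord and 62.4 ± 2.50% at the epicenter (SD, n = 4). The inhibitory Fcgr2b made up 8.40 ± 0.92% in the uninjured group, 13.1 ± 0.81% above, 16.8 ± 1.23% at the epicenter and 20.0 ± 1.95% below. Fcgr1 went from 17.9 ± 1.97% in uninjured cord to 12.8 ± 1.34% at the epicenter, and Fcgr4 from 2.20 ± 1.29% to 8.02 ± 0.40%.

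**Figure D3:**
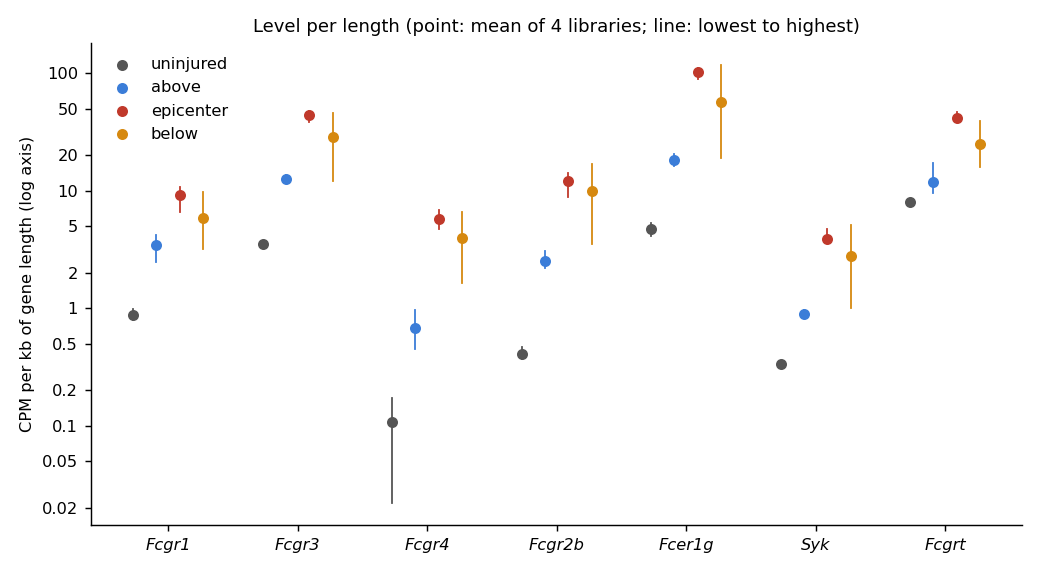
Mean level of each gene per kilobase of its length (CPM per kb, log axis) in the 4 groups, with a line from the lowest to the highest of the 4 libraries. Fcgrt is the highest gene in uninjured cord (8.07) and Fcer1g at the epicenter (102.9).

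The balance of activating to inhibitory receptor was compared within each library, as the log2 ratio of the 2 genes' CPM with 0.5 CPM added to each. In all, 6 ratios were tested in 6 pairs of groups, 36 exact two-sided permutation tests with Benjamini-Hochberg adjustment, where 4 libraries against 4 cannot give a p below 0.0286. Fcgr1 counts were 96.6 ± 19.7% of Fcgr2b counts in the uninjured group, 61.0 ± 10.7% above, 33.9 ± 1.91% at the epicenter and 28.7 ± 8.17% below (SD, n = 4). The ratio of Fcgr1 to Fcgr2b was thus lower in every library of each segment than in any uninjured one, by a log2 difference of -0.64 above, -1.48 at the epicenter and -1.74 below (exact permutation, adjusted p = 0.0429 each). Fcgr3 counts were 257 ± 22.6% of Fcgr2b counts in the uninjured group, 151 ± 15.5% above, 112 ± 12.9% at the epicenter and 89.8 ± 10.1% below. The differences from uninjured cord were -0.62 above, -1.04 at the epicenter and -1.36 below (exact permutation, adjusted p = 0.0429 each). Both ratios were also lower at the epicenter and below than above (adjusted p = 0.0429 each) and did not pass between epicenter and below. Over the 4 same-numbered epicenter and below libraries, taken as pairs, the ratio of Fcgr3 to Fcgr2b was higher at the epicenter in 4 of 4 and that of Fcgr1 to Fcgr2b in 3 of 4, and a sign flip over 4 pairs cannot give a p below 0.125. Fcgr3 and Fcgr2b share the paralogous stretch given above, which touches this ratio and not that of Fcgr1 through Fcgr1 reads.

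For Fcgr4 the balance could not be read in 1 direction against uninjured cord. Fcgr4 counts were 5.89 ± 3.80% of Fcgr2b counts in the uninjured group, 5.70 ± 1.13% above, 10.4 ± 0.82% at the epicenter and 8.92 ± 0.84% below. Uninjured libraries spread from 1.11% to 9.80%, on 2 to 15 counts of Fcgr4. The log2 difference of the ratio at the epicenter was -0.998 with 0.5 CPM added and 1.20 with nothing added (exact permutation, adjusted p = 0.0429 and 0.0791), so its sign came from the added value.

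**Figure D4:**
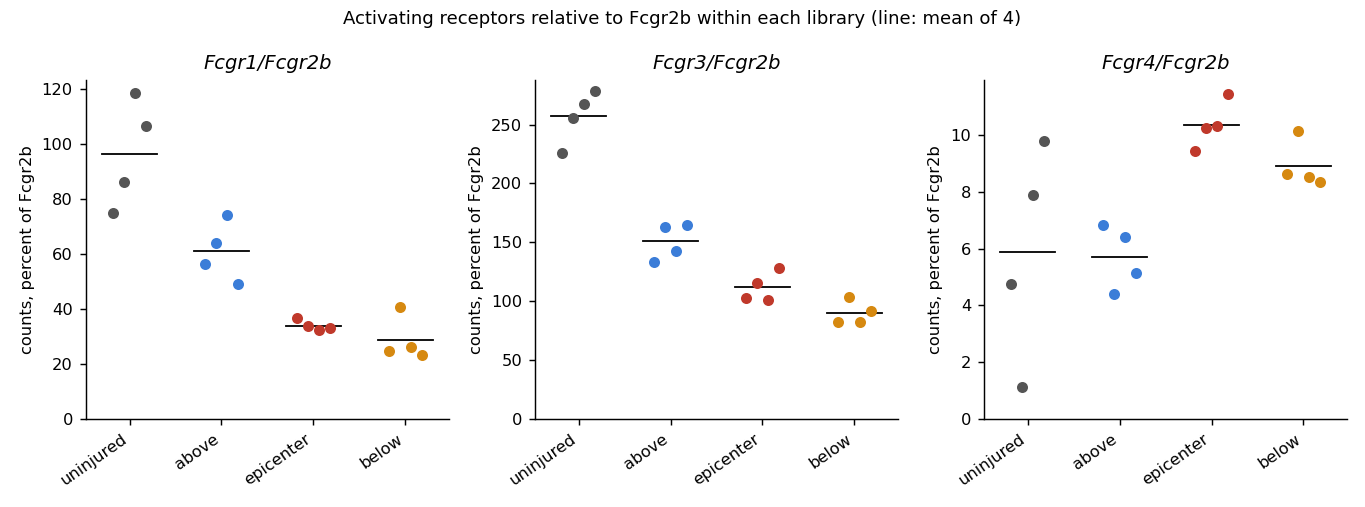
Counts of Fcgr1, Fcgr3 and Fcgr4 as a percentage of Fcgr2b counts in the same library, 1 point per library, with a line at the mean of 4 and linear axes from 0. Fcgr1 and Fcgr3 step down from uninjured cord (means 96.6% and 257%) to the epicenter (33.9% and 112%), while uninjured Fcgr4 spreads from 1.11% to 9.80%.

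The chain was also compared with a general myeloid gene and with its kinase. Fcer1g counts were 147 ± 13.7% of those of Aif1, a cytoskeletal protein of microglia and macrophages, in the uninjured group, 204 ± 25.5% above, 325 ± 9.50% at the epicenter and 313 ± 84.4% below. The log2 ratio of Fcer1g to Aif1 was higher by 0.49 above, 1.20 at the epicenter and 1.09 below (exact permutation, adjusted p = 0.0429 each). This direction depends on the marker chosen: Cd68, a lysosomal protein and another of the 7 pan-myeloid markers, had log2 fold changes of 5.55 ± 0.52 at the epicenter, 2.78 ± 0.46 above and 5.17 ± 0.51 below, each over that of Fcer1g. The difference from Cd68 was not tested. Syk counts were 76.6 ± 8.98% of Fcer1g counts in the uninjured group, 52.5 ± 8.47% above, 40.9 ± 6.96% at the epicenter and 55.4 ± 6.82% below, and the log2 ratio was lower by values of -0.56, -0.95 and -0.50 (exact permutation, adjusted p = 0.0429 each).

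B2m, the light chain of the Fcgrt receptor and of class I antigen presentation, rose in all 3 segments, by 2.88 ± 0.24 on the log2 scale at the epicenter, 1.30 ± 0.23 above and 2.40 ± 0.23 below. Fcgrt counts fell relative to it from 21.2 ± 1.21% in uninjured cord to 12.7 ± 2.38% above, 14.9 ± 3.05% at the epicenter and 12.6 ± 1.29% below. The log2 ratio differed by -0.76, -0.55 and -0.78 (exact permutation, adjusted p = 0.0429 each). Epicenter 4 had the highest ratio of its group, as it had the highest Fcgrt level.

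Across the 16 libraries, the log2 levels of the 7 genes had Pearson correlations with each other from 0.908 (Fcgr1 and Fcgrt) to 0.994 (Fcgr3 and Fcer1g). These values are a description, since the libraries share 4 groups whose means differ and common scaling. By the same measure, the genes most like Fcer1g among all tested were Trem2 (0.999), Tyrobp (0.998) and C1qa (0.998), a phagocytic receptor, its adaptor and a complement chain of microglia. Those most like Fcgr1 were Csf1r (0.992), the receptor for CSF-1, Treml2 (0.992) and Cd14 (0.991), a co-receptor for bacterial lipopolysaccharide. Fcgr3 was closest to AF251705 (0.997), the lysosomal protease gene Ctss (0.997) and C1qc (0.997). Fcgr2b was closest to Atf3 (0.998), a stress-induced transcription factor, Ctss (0.995) and Csf2rb (0.995), a cytokine receptor chain. The nearest genes to Fcgr4 were Zmynd15 (0.994), Tgfbr2 (0.993) and C1ra (0.993), and to Syk they were Ezr (0.996), Hk3 (0.996) and Arhgap30 (0.996). For Fcgrt they were Cnn2 (0.996), a calponin, Htra3 (0.996), a secreted protease, and Gpx8 (0.995), a peroxidase of the endoplasmic reticulum.

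The rest of the pathway was described with 7 lists of 103 names, of which 98 genes were tested, and their counts stand against the shares of all tested genes given above (31.9% rose and 29.3% fell at the epicenter, 3.09% and 0.446% above, 23.6% and 15.7% below). Of 22 genes of proximal signaling, 18 rose and 2 fell at the epicenter, 9 rose above, and 17 rose and 1 fell below, with medians of 2.21, 0.69 and 1.83. Fgr, a Src family kinase of myeloid cells, rose by 4.44 ± 0.44 at the epicenter, 2.20 ± 0.42 above and 3.66 ± 0.43 below. Blnk, an adaptor downstream of Syk, rose by 4.00 ± 0.37, 2.05 ± 0.35 and 3.57 ± 0.36, and the kinase Btk by 3.39 ± 0.35, 1.71 ± 0.33 and 2.95 ± 0.34. Fyn, a Src family kinase that neurons and oligodendrocytes also use, did not pass at the epicenter (0.06 ± 0.08, edgeR adjusted p = 0.573). Lyn, a Src family kinase that phosphorylates the ITAM, rose in all 3 segments, by 2.74 ± 0.29 at the epicenter, 1.23 ± 0.27 above and 2.33 ± 0.28 below.

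Of 19 inhibitory signaling genes 15 rose and 1 fell at the epicenter, 5 rose above, and 14 rose and 1 fell below (medians 1.90, 0.54 and 1.03). Ptpn6, the phosphatase SHP-1, rose by 3.52 ± 0.33 at the epicenter, 1.78 ± 0.31 above and 3.06 ± 0.32 below, and Inpp5d, the lipid phosphatase recruited by Fcgr2b, rose in all 3 segments, by 2.69 at the epicenter. Of the ITIM receptors, Lilrb4a rose by 7.16 ± 0.59 at the epicenter, 4.62 ± 0.56 above and 7.12 ± 0.59 below, with the uncertainty of a near-identical neighbour in the genome. Cd300a rose by 5.12 ± 0.52, 1.91 ± 0.48 and 4.81 ± 0.51, and Pirb by 4.52 ± 0.42 at the epicenter and 3.95 ± 0.41 below. The call of Cd300a above (edgeR adjusted p = 0.0396) was lost with limma-voom. It was also lost when any 1 uninjured, above or epicenter library or below 4 was left out. Ptpn11, the broadly expressed phosphatase SHP-2, did not pass at the epicenter (-0.11 ± 0.09).

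Of 17 other ITAM adaptors and the receptors that use them, 14 rose and 1 fell at the epicenter, 2 rose above and 14 rose below (medians 4.47, 1.47 and 3.39). Those above were Tyrobp, the ITAM adaptor DAP12, at 2.14 ± 0.39, and Trem2 at 2.00 ± 0.37. The lectin receptor genes Clec4d and Clec4n, whose products signal with Fcer1g, rose by 7.65 ± 0.80 and 7.22 ± 0.83 at the epicenter and by 6.96 ± 0.80 and 5.34 ± 0.85 below. Trem3 had 0 counts in uninjured cord and was at least 37.2-fold higher at the epicenter, against a floor of 3 counts over the group. Siglech, a receptor of microglia that pairs with DAP12, did not pass at the epicenter (0.28 ± 0.31). It did pass with only the 8 libraries compared (0.29, edgeR adjusted p = 0.0209). The same held without below 3 (0.28, 0.0150) and without above 1 and below 3 together (0.28, 0.0136).

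Effector genes numbered 18, and 15 rose and 3 fell at the epicenter, 11 rose above, and 13 rose and 3 fell below (medians 3.24, 1.38 and 2.67). Those of the phagocyte oxidase had the largest changes: Cybb, its catalytic subunit, rose by 6.52 ± 0.56 at the epicenter, 3.70 ± 0.51 above and 6.33 ± 0.56 below. Cyba, its partner, rose by 4.71 ± 0.40, 2.04 ± 0.36 and 4.01 ± 0.39, and Ncf4, a cytosolic subunit, by 4.43 ± 0.43, 1.86 ± 0.41 and 3.63 ± 0.42. The call of Ncf4 above was lost with limma-voom and without uninjured 1, 2 or 3 or above 1. Elmo1, a phagocytosis adaptor, fell from 128 CPM in uninjured cord to 84.7 CPM at the epicenter, and the kinase gene Pak1 from 325 to 198 CPM. Neuronal markers fell there too (3760 to 4016 CPM in uninjured cord, 1227 to 1851 at the epicenter). Their part in it was not tested.

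On the ligand side only RNA of antibody chain genes was counted, which does not measure IgG protein in the tissue. Their reads may be shared between near-identical segments. Besides IgG heavy chains the list holds light chains and chains of other antibody classes, such as Ighm, Igha and Ighd. Of 10 tested, 8 rose at the epicenter, 1 above and 5 below (medians 3.81, 0.47 and 2.01, or 3.79, 0.47 and 1.89 with genes at 0 counts set to their bound). Igkc, the kappa light chain constant region, went from 0.162 to 5.55 CPM at the epicenter and 1.66 CPM below, where it rose by 3.31 ± 0.48. Ighg1 had 0 counts in uninjured cord and 101 at the epicenter, at least 32.4-fold higher. Among the IgG heavy chains, Ighg1, Ighg2b and Ighg2c rose at the epicenter and Ighg3 did not (-0.64 ± 0.41, edgeR adjusted p = 0.190). Below, only Ighg2b rose among them, and above none did. Ighg2b rose by 5.92 ± 0.88 at the epicenter. Igha rose by 6.56 ± 0.80 at the epicenter, 3.39 ± 0.89 above and 4.48 ± 0.84 below. Iglc2 rose by 5.28 ± 1.30 at the epicenter and 4.88 ± 1.31 below. The call of Igha above was close to the threshold (edgeR adjusted p = 0.0492). It was lost with upper-quartile factors, with limma-voom, with the replicate block and when any 1 of uninjured 1 to 3, above 1 to 4 or epicenter 1 to 4 was left out. Ighm was at 42.7 CPM in uninjured cord, far over the light chains Igkc and Iglc2 (0.162 and 0.0210 CPM). Which cells its reads came from was not tested. Ighm did not pass at the epicenter (-0.24 ± 0.26) or below (-0.68 ± 0.26, edgeR adjusted p = 0.0502). Markers of B and plasma cells, which make antibody chains, summed to 47.2 to 53.9 CPM in the uninjured group, 52.1 to 60.9 above, 118 to 128 at the epicenter and 69.5 to 115 below. Of 10 such markers 7 rose and 1, Cr2, fell at the epicenter, 0 changed above and 6 rose below, and their part in the antibody chain levels was not tested. Cd79a and Cd79b, both among the 10, were at only 0.219 and 0.240 CPM in uninjured cord and at 1.76 and 1.74 CPM at the epicenter. Most of the sum thus came from other markers of the list, and it mainly follows those.

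Of 11 other Fc receptor genes tested, 7 rose and 1 fell at the epicenter, 2 rose above and 5 rose below (medians 2.87, 0.67 and 1.46). Fcrls, an Fc receptor-like gene known as a microglia marker, was at 8.91 CPM in the uninjured group, 34.8 above, 138 at the epicenter and 103 below. It rose by 3.95 ± 0.49 at the epicenter, 1.97 ± 0.45 above and 3.54 ± 0.48 below. Fcrl1, known from B cells, rose by 4.74 ± 0.52 at the epicenter and 4.12 ± 0.51 below, and Fcer1a, the IgE-binding chain that signals with Fcer1g, by 5.38 ± 1.15 and 4.61 ± 1.20 from 2 counts in uninjured cord. Trim21, a cytosolic antibody receptor, rose by 1.79 ± 0.20 at the epicenter, 0.85 ± 0.19 above and 1.46 ± 0.19 below. The calls of Fcrls and Trim21 above were lost with limma-voom and without any 1 uninjured library, above 1 or above 2. That of Trim21 was also lost without above 3. Fcer2a, the low-affinity IgE receptor, did not pass at the epicenter (-0.21 ± 0.26).

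**Figure D5:**
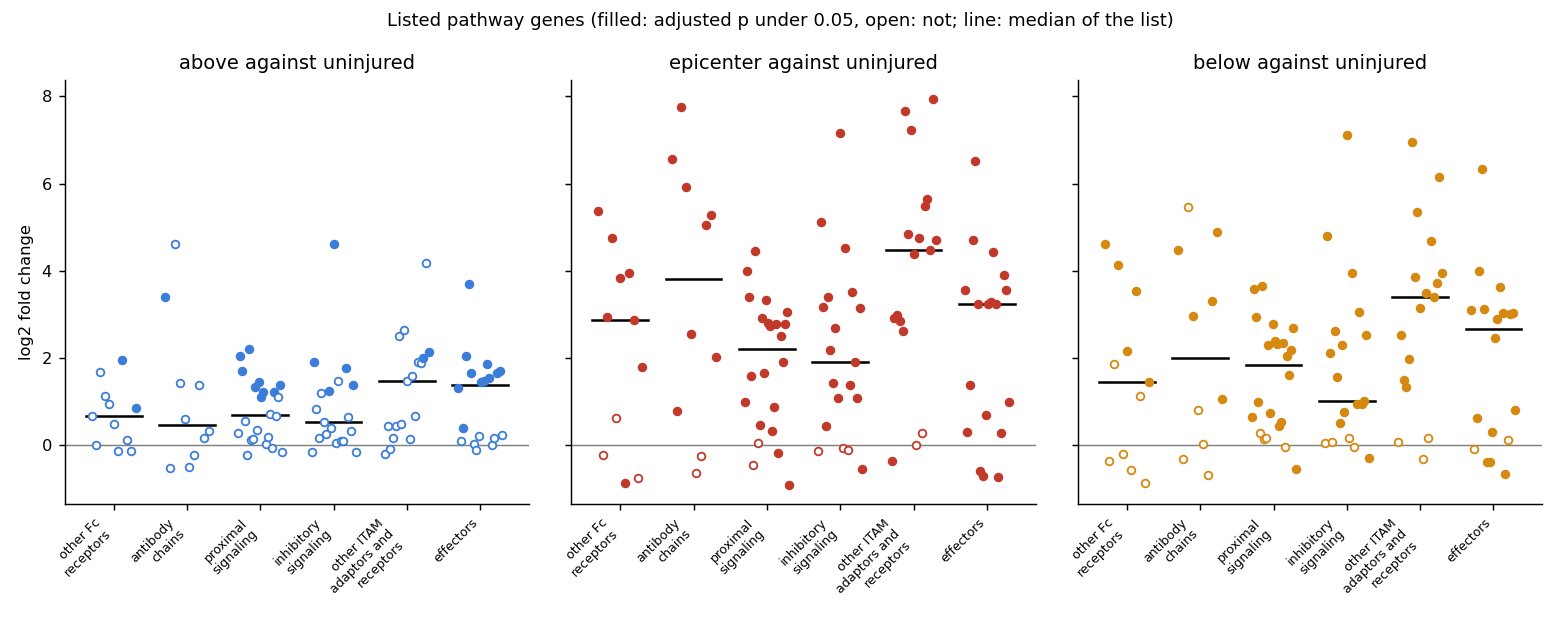
Log2 fold change against uninjured cord of every tested gene in 6 pathway lists, for the segments above, at and below the injury; filled points had an edgeR adjusted p under 0.05, open points did not, and black lines are list medians. At the epicenter the medians run from 1.90 (inhibitory signaling) to 4.47 (other ITAM adaptors and receptors), and above from 0.47 to 1.47.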

How the data were processed

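RNA from 16 libraries was prepared with RNA Stat60 and sequenced from TruSeq RNA Sample Prep Kit v2 libraries made from 200 ng, per the labels' protocols. The authors deposited unnormalized counts of reads for each gene and library, beside a gene length, per the file headers. TopHat2 2.0.12, Subread 1.4.4, edgeR and the build mm10 are named in the submitters' processing notes without their roles. How multi-mapped reads were handled, the strand setting and the annotation release were not given in the sources used here, so paralogs and overlapping genes may exchange or lose reads.

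Rows were filtered by group with filterByExpr, scaled with TMM factors and fitted in edgeR 4.0.16 (R 4.3.3, glmQLFit and glmQLFTest) in 1 fit of 16 libraries with a term per group, p-values being adjusted over 23769 rows. The SE is the log2 fold change over the square root of F. The test was tried on simulated counts with 200 changed genes. Library totals of 65.6 to 90.0 M (mega) counts set the precision. The members and lists were chosen with earlier results of these data known. In each list and comparison, the 3 called genes of largest absolute change and, at the epicenter, the uncalled gene of highest mean were named. Lyn, Inpp5d, Elmo1, Pak1, Ighg2c and Ighg3 were named after their values were seen. Some genes of the lists are not reported here by name. Of 103 listed names 100 were found, and names held by more than 1 row were not used. Same-numbered libraries of different groups were checked for shared deviations: 7 of 24 pairs had a correlation over 0.1 (-0.177 to 0.404), and all 4 pairs did so for epicenter and below, where the numbers were treated as pairing. Every pair of libraries of a group differed beyond sampling noise, at a chi-square of at least 6.57 per degree of freedom. Alternatives were other scaling factors, no filter, DESeq2 1.42.0, limma-voom (limma 3.58.1), other priors for ratios, only the libraries compared, a replicate block and leaving out libraries. Ratios with no added CPM were chosen after seeing the data. Shared stretches and exonic overlaps come from GENCODE M21 on GRCm38, the assembly of mm10, whose coordinates match those of the files for 6 of 7 members.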

Additional observations from a re-analysis of the deposited data

Results flagged for a closer look

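In 5 of 52 sets of 4 libraries examined (28 of member levels and 24 of member ratios), 1 library lay far from the other 3 by Dixon's test at its 95% level, which chance passes in about 1 of 20 sets. Fcgrt was at 30.0 CPM in above 1, with 16.7 to 18.4 in the other above libraries. Syk was at 44.5 CPM in epicenter 3, with 33.4 to 34.3 in the others. The log2 ratio of Fcgr1 to Fcgr2b was -1.24 in below 2, with -2.06 to -1.92 in the other below libraries, and that of Fcgr4 to Fcgr2b was -3.02 there, with -3.47 to -3.40 in the others. The log2 ratio of Fcgrt to B2m was -2.35 in epicenter 4, with -2.91 to -2.87 in the other epicenter libraries.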

How the results depend on the processing

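The 7 member calls at the epicenter against uninjured cord, below against uninjured cord and at the epicenter against above held under every alternative run. Above against uninjured cord, 6 of 7 became 3 with limma-voom and 5 to 7 with 1 library left out. For the epicenter against below, 1 of 7 became 0 with library totals alone and with only the 8 libraries compared, 4 with limma-voom, 7 without above 1 and below 3 together and 0 to 7 with 1 library left out. Below against above gave 3 with only the 8 libraries and 6 to 7 with 1 library left out. Calls over all genes, in either direction, moved too. For the epicenter against below they were 5381 with library totals, 31 with only the 8 libraries and 5376 with limma-voom. They were 11268 without above 1 and below 3, and 2335 to 11057 with 1 library left out. With library totals, the median log2 fold change over all tested genes was 0.14 below against uninjured cord and 0.12 below against above, in place of -0.00311 and 0.0270, where the members' medians were 3.05 and 1.64.

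With the replicate number as a block, the epicenter against below gave 2 among 16 libraries and 0 among the 12 injured ones, with 4758 and 2567 of all genes called. The block left 0 of 1 antibody chain call above. A sign flip over 4 pairs cannot pass, and it left 0 ratios called in every comparison. Against uninjured cord, which came from other mice, neither block nor pairs by number have a basis in the design.

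Reversed values were the Fcgr2b change from below to the epicenter without below 2 (-0.00179; range with 1 library left out -0.00179 to 0.658) and, for Fcgr4 to Fcgr2b, the epicenter against uninjured cord with a prior of 0.1 CPM (0.22) and none (1.20), above with none (0.32), below with 0.1 CPM (0.0109) and none (0.98), and with a prior of 2 CPM the epicenter and below against above (-0.42 and -0.45). Fcgrt to B2m below against above was 0.00208 with no prior.

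For pathway lists above against uninjured cord, limma-voom called 0 other Fc receptors, 0 antibody chains, 0 proximal, 0 inhibitory and 3 effector genes. Only the 8 libraries compared gave 4, 2, 15 and 10 for the first 4 of these and 4 for other ITAM genes. DESeq2 gave 2 antibody chains, 8 inhibitory and 5 other ITAM genes, upper-quartile factors 0 antibody chains, library totals 8 inhibitory genes, and leaving out above 1 and below 3 gave 8 inhibitory and 4 other ITAM genes. With 1 library left out these lists ranged from 0 to 2, 0 to 1, 4 to 14, 3 to 10 and 2 to 4, and effectors from 7 to 11. Of all genes above, in either direction, limma-voom called 269, only the 8 libraries 3684 and DESeq2 1485. With 1 library left out the range was 408 to 2298. Below, limma-voom called 3 antibody chains (2 higher and 1 lower), the 8 libraries 3 antibody chains and 3 other Fc receptors, and 1 library left out 3 to 6 antibody chains. Of 1445 settings for named pathway genes, 1385 kept direction and call, 57 lost the call and 3 gained it. Why these counts moved was not tested. Low counts limit Fcgr4, Ighg1, Trem3 and Fcer1a, among others, with 0 to 15 counts in an uninjured library.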
